A study of Saccharomyces cerevisiae S288C with 4 samples.

Results

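The genes described here are *HSP12*, *HSP26*, *HSP30*, *HSP31*, *HSP42* and *HSP104* of budding yeast, chosen by name as the small heat shock proteins and Hsp104. All 6 were found by gene symbol among the 6396 genes of the deposited table. Of the proteins they encode, Hsp26 and Hsp42 belong to the small heat shock protein family in the strict sense, whereas Hsp12, Hsp30 and Hsp31 are small proteins of other families and Hsp104 is a large ATPase.

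WT cells were BY4741, a haploid *MATa* laboratory strain, and *tho2Δ* cells were FY254, in which a KanMX4 cassette replaces *THO2*, the gene of a subunit of the THO complex that couples transcription to mRNA packaging and export. Only 1 strain of each genotype was sequenced. Both carry the alleles *ura3Δ0*, *leu2Δ0*, *his3Δ1* and *met15Δ0*, and both were grown in YPD, a rich medium, at 30°C until mid-log phase. No heat shock is described. RNA of each strain was sequenced in duplicate, numbered 3 and 4, and nothing in the sources used here says whether the duplicates came from separate cultures, so that the p-values rest on the spread of these RNA samples alone, which may be technical. In such bulk samples a level is relative to the RNA of all cells, and fewer cells that express a gene cannot be told apart from less of its RNA per cell.

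The libraries held between 31417222 and 36989697 counts. *THO2* had 4011 and 2457 counts in WT replicates 3 and 4 and 1 count in each *tho2Δ* library. Transcripts of *MATa* cells (*MFA1*, *MFA2*, *STE2* and *BAR1*) summed to between 1109 and 2829 TPM (a level per gene length, scaled to a fixed sum in each library) in the 4 libraries, and those of *MATα* cells to between 5.86 and 31.7 TPM. *URA3* and *MET17* (the *MET15* gene) had 0 counts throughout. *LEU2*, which the allele *leu2Δ0* lacks, had 0 counts in WT replicate 3 but 2512 in WT replicate 4, 511 in *tho2Δ* replicate 3 and 4276 in *tho2Δ* replicate 4. In 3 libraries these reads go against the stated genotype, and their part in the results was not tested. WT replicate 3 and *tho2Δ* replicate 3 alone still differ in *LEU2* reads, and leave 1 library per strain and no test. Between these libraries the 6 genes were from 2.08-fold to 6.26-fold higher in *tho2Δ*. *SCR1*, an abundant noncoding RNA, took 8.46% and 7.71% of the counts in WT and 13.7% in each *tho2Δ* library, and counts are given here as CPM, scaled to library size and to TMM factors between 0.723 and 1.18. The WT libraries differed more from each other (median difference of 0.229 in log2 over genes) than the *tho2Δ* libraries (0.0851).

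Heat shock proteins keep other proteins from clumping, or recover them once they have clumped. In yeast, heat and misfolded proteins act through the transcription factor Hsf1, which binds heat shock elements, and many stresses as well as slow growth and glucose limitation act through Msn2 and Msn4, which bind stress response elements. Hsp26 and Hsp42 bind unfolding proteins and hold them in aggregates from which they can be refolded, and Hsp104 pulls proteins out of such aggregates together with chaperones of the Hsp70 and Hsp40 families. Hsp12 associates with membranes under stress, Hsp30 lies in the plasma membrane and restrains the proton pump Pma1, and Hsp31 detoxifies methylglyoxal.

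All 6 genes were higher in *tho2Δ* than in WT. The smallest change was 1.92-fold in *HSP31*, and the other 5 genes ranged from 3.69-fold in *HSP12* to 6.83-fold in *HSP30*, with a median of 3.93-fold over the 6. The log2 change below is that of *tho2Δ* over WT from the edgeR fit. Each passed edgeR's quasi-likelihood test at an adjusted p under 0.05, at which 18.8% of the 5890 genes tested were higher and 19.1% were lower. In each of the 6, both *tho2Δ* libraries lay above both WT libraries, which was so for 38.6% of all tested genes. The median log2 change of all tested genes was 0.01.

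The letters of the 2 kinds of binding element were looked for in the DNA before each gene, to show what these genes have in common besides their names. The searched letters were AGGGG for the stress response element (STRE), and TTCNNGAA or GAANNTTC for a heat shock element of 2 units, on both strands. The gene models begin at the start codon, so distances are counted from there, and a match of letters is not a proven site. The stretches below are from the RefSeq genome of build R64, with the matched letters in capitals, each read on the strand of its gene. They hold the matches that lie closest together, except the second of *HSP26*, which holds its only match to the heat shock element.
*HSP42* (chrIV:806372-806401, 243 to 226 bases before the start codon): taaaagTTCTGGAAGGTTCGCGAAttgaga
*HSP42* (chrIV:806403-806432, 212 to 196 bases before): ctgctcAGGGGcgaatacAGGGGcggcctt
*HSP104* (chrXII:88315-88344, 302 to 285 bases before): atatttTTCCAGAATTTTCTAGAAgggtta
*HSP26* (chrII:381548-381577, 479 to 457 bases before): gtaCCCCTaactccgtgtgtaCCCCTaaag
*HSP26* (chrII:381665-381694, 354 to 347 bases before): cattgcttgatTTCTAGAAagatcgatggt
*HSP12* (chrVI:106819-106848, 435 to 410 bases before): taAGGGGatatgttgcaacttgcAGGGGgc
*HSP31* (chrIV:1502355-1502384, minus strand, 222 to 197 bases before): taAGGGGcatgtacatagtcTTCATGAAag

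The first stretch of *HSP42* and that of *HSP104* each hold 3 overlapping matches to the heat shock element, which form a run of alternating units over 18 bases. An uninterrupted run of at least 3 units was found before 1.48% of all 6000 genes with 500 bases upstream. *HSP26* and *HSP31* each had 1 match of 2 units, which 35.2% of genes had, and *HSP12* and *HSP30* had none in this window. STRE letters were found 5 times before *HSP12*, 3 times each before *HSP26*, *HSP42* and *HSP104*, and 1 time before *HSP31*. At least 1 match stood before 34.1% of all genes, at least 3 before 1.83% and at least 5 before 0.2%. In the shorter window from 250 bases before to 50 after the start codon, 4 of the 6 genes had STRE letters, as did 21.6% of 6001 genes, and 2 had a heat shock element of 2 units, as did 22.6%. *HSP30* had neither element, which says only that these letters are not in the window. Outside the 6 genes, 56 of the 106 tested genes with at least 3 STRE matches in 500 bases were higher in *tho2Δ* (52.8%). Of these 106, 3.77% were lower. With at least 1 STRE match, 28.9% of 1958 genes were higher and 13.8% lower. Of the 3780 with none, 522 were higher (13.8%) and 22.4% were lower. With at least 1 heat shock element of 2 units, 19.2% of 2019 genes were higher and 20.3% lower. Of the 3719 with none, 18.8% were higher and 19.0% lower. Of 86 tested genes with a heat shock element of at least 3 units, 26 were higher (30.2%) and 20 lower (23.3%). Of the 5652 with none, 18.8% were higher and 19.4% lower. These shares are a description of the table, since genes with such letters are not independent of each other.

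**Figure D1:**
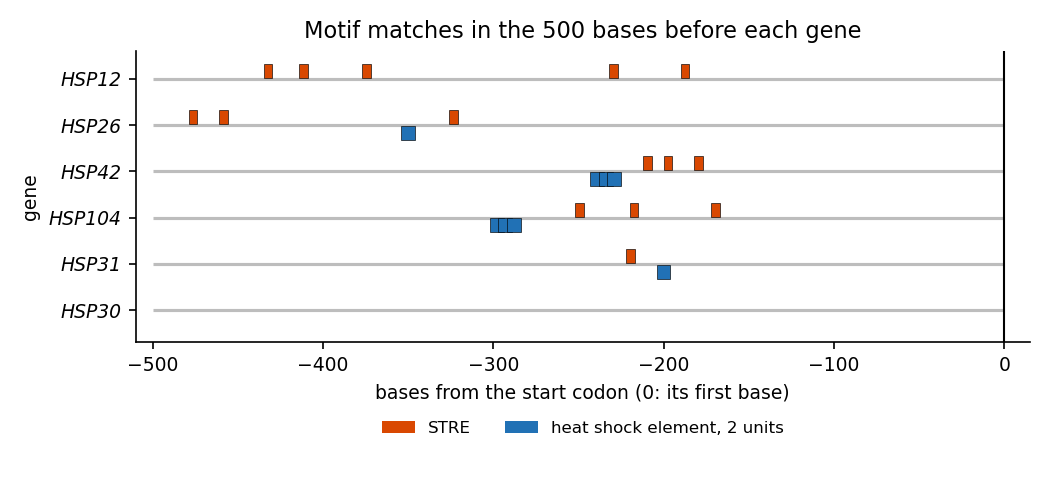
Positions of letters matching the stress response element (STRE, orange) and the 2-unit heat shock element (blue) in the 500 bases before the start codon of each gene, in bases from that codon. *HSP12* carries 5 STRE matches and no heat shock element, *HSP42* and *HSP104* carry a run of overlapping heat shock elements and 3 STRE matches each, and *HSP30* carries neither.

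*HSP26* encodes a small heat shock protein that assembles into large hollow particles and was the most abundant of the 6 transcripts per length in both strains. It had 362 and 440 CPM in WT replicates 3 and 4, and 1640 and 1557 CPM in *tho2Δ* replicates 3 and 4. Its log2 change was 1.99 (SE 0.19, edgeR adjusted p = 0.00213), a rise of 3.99-fold with a 95% interval from 2.87 to 5.53. Per gene length the level was 463 ± 30.4 TPM in WT and 2449 ± 64.8 TPM in *tho2Δ* (SD, n = 2). Among the transcripts of 5980 protein-coding genes in the table, it moved from ranks 251 and 239 in the WT libraries to ranks 19 and 20 in *tho2Δ*. *HSP26* lies on chromosome II from 382030 to 382674 (R64, coding length 645 bp).

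*HSP42* encodes the other small heat shock protein, which sorts misfolded proteins into aggregates in the cytosol also without stress. It had 65.5 and 60.7 CPM in WT and 376 and 368 CPM in *tho2Δ*. The log2 change of 2.56 (SE 0.12, edgeR adjusted p = 0.000906) corresponds to 5.89-fold, with a 95% interval from 4.82 to 7.20. Of the 6 genes it had the smallest standard error, and the duplicates of each strain lay close together in CPM. It was also the least abundant of the 6 in WT, with 42.5 ± 10.8 TPM (SD, n = 2) against 326 ± 1.94 TPM in *tho2Δ*. In *tho2Δ* it made up 4.81% and 5.05% of the summed TPM of the 6 genes, beside 4.03% and 3.07% in WT. *HSP42* spans 806621 to 807748 on chromosome IV.

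*HSP104*, the gene of the disaggregase, had 371 and 423 CPM in WT and 1538 and 1539 CPM in *tho2Δ*. The *tho2Δ* libraries differed by 0.00 on the log2 scale, and the WT libraries by 0.19. Its log2 change was 1.95 (SE 0.17, edgeR adjusted p = 0.00199), or 3.87-fold with a 95% interval from 2.86 to 5.24. *HSP104* is long, with a coding length of 2727 bp on chromosome XII from 88623 to 91349, and per length its level was 109 ± 12.0 TPM in WT and 558 ± 6.09 TPM in *tho2Δ* (SD, n = 2). Its counts were thus near those of *HSP26* while its level per length was lower in all 4 libraries.

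In CPM, *HSP12*, the gene of the membrane-associated protein, was the least even of the 6 between the WT libraries. By TPM its WT replicates 3 and 4 (348 and 404) were closer than those of *HSP30* (180 and 110). *HSP12* had 133 CPM in WT replicate 3 and 206 CPM in WT replicate 4, a difference of 0.63 on the log2 scale. The *tho2Δ* libraries had 675 and 578 CPM. The groups did not overlap. The log2 change was 1.88 (SE 0.24, edgeR adjusted p = 0.00414), or 3.69-fold with a 95% interval from 2.42 to 5.63. With the shortest coding sequence of the 6 (330 bp, chromosome VI from 107256 to 107585), it came second to *HSP26* per length, at 376 ± 39.6 TPM in WT and 1875 ± 186 TPM in *tho2Δ* (SD, n = 2). It ranked 301 and 256 among protein-coding transcripts in WT and 28 and 34 in *tho2Δ*.

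*HSP30*, which encodes the plasma membrane protein, had the largest change of the 6. It had 208 and 170 CPM in WT and 1303 and 1278 CPM in *tho2Δ*, a log2 change of 2.77 (SE 0.18, edgeR adjusted p = 0.00131). This is 6.83-fold with a 95% interval from 4.98 to 9.37, and *HSP30* ranked 41 of the 5890 tested genes by log2 change. Between the WT libraries its CPM differed by -0.29 on the log2 scale (replicate 4 over replicate 3), the opposite direction to *HSP12*, *HSP26* and *HSP104*. This contrast depends on the scale. By TPM *HSP26* (485 and 442 in WT replicates 3 and 4) and *HSP104* (117 and 101) fell like *HSP30* (180 and 110). Only *HSP12* rose (348 and 404). Per length *HSP30* had 145 ± 49.3 TPM in WT and 1277 ± 4.78 TPM in *tho2Δ* (SD, n = 2). This was 14.5% and 9.68% of the summed TPM of the 6 genes in WT and 18.8% and 19.8% in *tho2Δ*. *HSP30* lies on the minus strand of chromosome III from 156109 to 157107.

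*HSP31*, the methylglyoxalase gene, changed least. It had 50.4 CPM in both WT libraries and 105 and 88.8 CPM in *tho2Δ*, a log2 change of 0.94 (SE 0.12, edgeR adjusted p = 0.0043). The rise was 1.92-fold with a 95% interval from 1.55 to 2.38, whose upper end lay below the lower end of the interval of each of the other 5 genes, although differences between genes were not tested. Its call was lost without *tho2Δ* replicate 3, where the log2 change was 0.82 and the adjusted p from edgeR 0.0641. Per length it went from 53.3 ± 10.7 to 134 ± 14.6 TPM (SD, n = 2), and its part of the summed TPM of the 6 genes from 4.91% and 4.02% to 2.12% and 1.93%. *HSP31* lies on the minus strand of chromosome IV from 1501447 to 1502160.

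**Figure D2:**
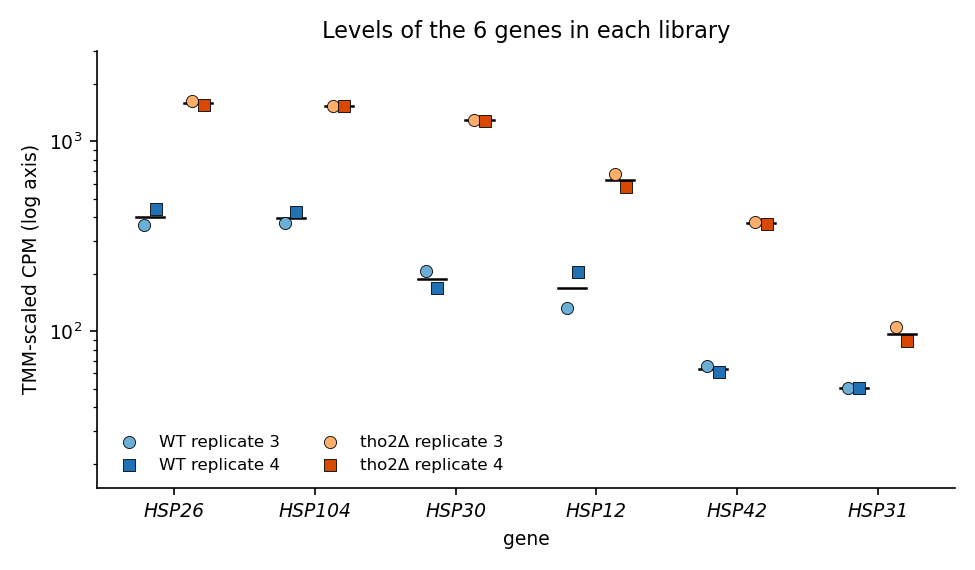
TMM-scaled CPM (log axis) of each gene in WT replicates 3 and 4 (blue) and *tho2Δ* replicates 3 and 4 (orange); black bars are group means of 2 libraries. For every gene both *tho2Δ* points lie above both WT points, with the narrowest gap in *HSP31* (50.4 against 88.8 and 105 CPM).

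In the order of their fold changes, *HSP30* and *HSP42* came first, then *HSP26*, *HSP104* and *HSP12*, and last *HSP31*. The intervals of neighbors overlapped along this order except between *HSP12* and *HSP31*. Each call but that of *HSP31* was kept under all 14 alternative settings, and *HSP31* kept it under 13. By log2 change, *HSP42* and *HSP26* stood at ranks 60 and 120, *HSP104* and *HSP12* at ranks 129 and 145, and *HSP31* at rank 615. None of the 6 overlaps another annotated gene. The closest sequence to any of them was *HSP33*, with 70.1% identity to *HSP31* over 92.7% of its length.

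**Figure D3:**
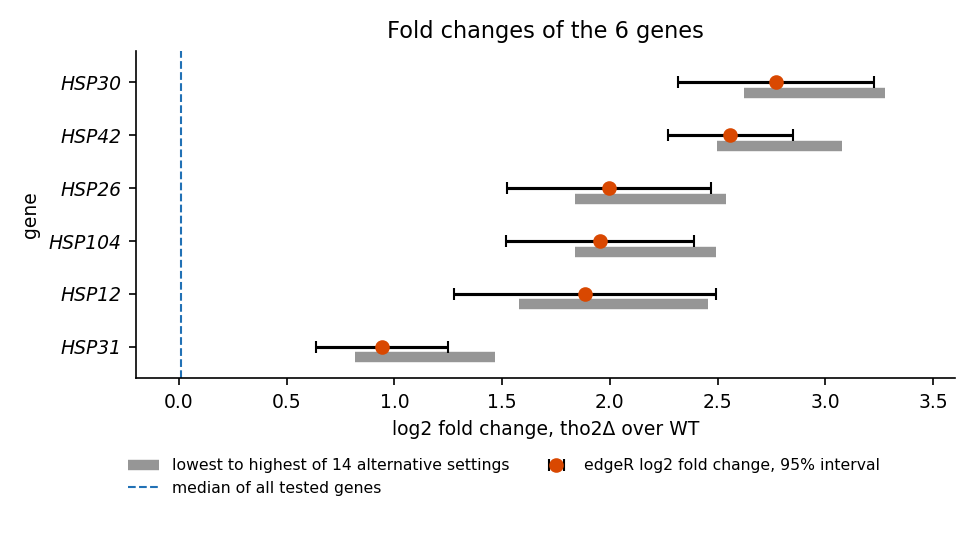
Log2 change of each gene (*tho2Δ* over WT, edgeR) as points with 95% intervals from the fit; gray bars span the 14 alternative settings and the dashed line is the median of all tested genes at 0.01. All points and bars lie to the right of the dashed line, and *HSP31* lies closest to it.

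Together the 6 genes took 1241 and 1137 TPM in WT replicates 3 and 4, and 6807 and 6431 TPM in the *tho2Δ* libraries. As a share of the TPM of protein-coding genes, this was 0.181% and 0.161% in WT and 1.18% and 1.10% in *tho2Δ*. In counts, the 6 genes took 0.145% and 0.121% of those on protein-coding genes in WT and 0.892% and 0.844% in *tho2Δ*. *HSP26* and *HSP12* made up most of the summed TPM in every library. The part of *HSP12* was 28.1% and 35.6% in WT and 29.5% and 27.1% in *tho2Δ*, so that the strains overlapped. The part of *HSP26* was 39.0% and 38.8% in WT and 36.7% and 37.4% in *tho2Δ*, and that of *HSP104* was 9.46% and 8.84% in WT and 8.13% and 8.74% in *tho2Δ*. *HSP30* and *HSP42* thus had a larger part, and *HSP26*, *HSP31* and *HSP104* a smaller part, in both *tho2Δ* libraries than in either WT library, and these differences were not tested.

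**Figure D4:**
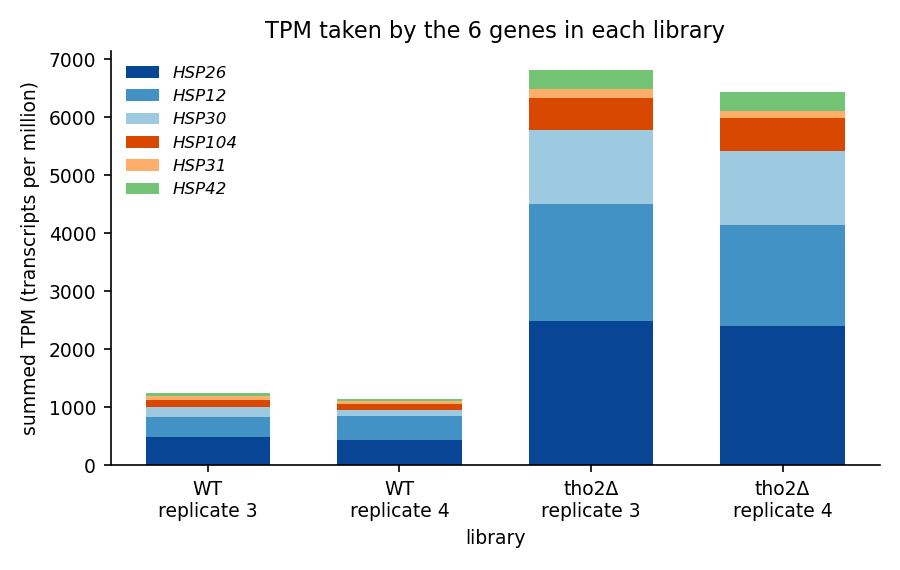
Summed TPM of the 6 genes in each library, with 1 color per gene; bars start at 0. The sum stands at 1241 and 1137 TPM in the WT libraries and at 6807 and 6431 TPM in the *tho2Δ* libraries, and *HSP26* and *HSP12* are the largest segments throughout.

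Targets of Hsf1, the heat shock factor that acts on *HSP42* and *HSP104*, were looked at as a list. This list and those below were written by hand with earlier results of these data known. Of 20 Hsf1 targets, 15 were higher in *tho2Δ* and 5 did not pass the test, beside 18.8% higher over all tested genes. *HSP42* and *HSP104* are themselves among the 15. The median, with these 2 genes included, was 2.45-fold against 1.01-fold over all tested genes. *SSA4*, a stress-induced Hsp70 gene, had 56.2 and 62.6 CPM in WT and 424 and 400 CPM in *tho2Δ*, a log2 change of 2.79 (SE 0.13, edgeR adjusted p = 0.000906). *HSP78*, the mitochondrial relative of *HSP104*, rose by 1.80, and *CUR1*, a factor that sends misfolded proteins and the chaperone Sis1 to the nucleus, by 1.74 on the log2 scale. The 5 that did not pass are named because they are few: *HSC82* and *SSA2*, an Hsp90 and an Hsp70 gene that growing cells use without stress, *SSA1*, the Hsp40 gene *YDJ1* and the Hsp90 regulator gene *HCH1* had log2 changes of -0.01 (0.56 with library totals without *SCR1* and *LSR1*), -0.50, 0.17, -0.11 and -0.02. Without WT replicate 3 these 5 were lower, whereas without WT replicate 4 *SSA1*, *HCH1* and *HSC82* were higher, which made 18 of the 20 targets higher and 0 lower. Without either *tho2Δ* library 11 were higher.

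Msn2 and Msn4, which act on *HSP12* and *HSP26* among others, also have targets outside the 6 genes. A list of 20 of them was written by hand with earlier results of these data known, so its count does not stand for all such targets. Of these 20 Msn2/4 targets, 19 were higher, beside 18.8% of all tested genes, and the median was 2.51-fold. *HXK1*, a hexokinase gene, did not pass (log2 change 0.72, edgeR adjusted p = 0.0631). *HXK1* passed under 8 of the 14 alternatives, without WT replicate 3 and without WT replicate 4 among them (edgeR adjusted p = 0.00803 and 0.000601). *DCS2* rose by 2.02 on the log2 scale. *SOL4*, an enzyme of the pentose phosphate pathway, *TFS1*, an inhibitor of a vacuolar protease, and *RTN2*, a membrane-shaping reticulon, rose by 2.27, 1.96 and 2.37. The count of 19 fell to 11 without *tho2Δ* replicate 3 and to 11 without *tho2Δ* replicate 4. Calls over the whole table also fell in both settings. Whether the Hsf1 and Msn2/4 targets differed was not tested, since the 20 genes of each list were written by hand and are not a sample of all targets.

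The partners with which Hsp104 recovers aggregated proteins split by gene. Of 10 genes for Hsp70 chaperones, Hsp40 co-chaperones and exchange factors, 6 were higher and 4 did not pass, and the median was 1.61-fold. After *SSA4*, the largest rises were 2.01 in *SSE2*, an exchange factor gene, 1.91 in *SSA3*, another stress-induced Hsp70 gene, and 1.47 in *SIS1*, an essential Hsp40 gene, all on the log2 scale. The 4 others were *SSA1*, *SSA2* and *YDJ1*, given above, and *SSE1*, the more abundant exchange factor gene, at -0.09. *SSA1* had 1991 and 4375 CPM in WT and 3542 and 3619 CPM in *tho2Δ*, so that its WT libraries enclosed the others. Without WT replicate 3 the 4 others were lower, whereas without WT replicate 4 *SSA1* and *SSE1* were higher, which made 8 of the 10 partners higher and 0 lower. Without *tho2Δ* replicate 3 or 4 the higher count was 4.

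Genes related in sequence or function to single members of the 6 followed no common direction. Of 5 relatives of *HSP104* and *HSP31*, *HSP78* alone was higher and 4 did not pass, while 2 were higher without WT replicate 4. *HSP32*, *HSP33* and *SNO4*, which are relatives of *HSP31* and near-copies of each other, had between 1 and 43 counts in any library and did not pass (adjusted p = 0.121, 0.104 and 0.0957 from edgeR), nor did *MCX1*, a mitochondrial ATPase gene, at 0.26. Among 3 genes tied to *HSP30*, 1 was higher, the relative *YRO2*, which rose by 0.64 on the log2 scale (SE 0.16, edgeR adjusted p = 0.03). This call of *YRO2* was lost with either *tho2Δ* library left out (adjusted p = 0.365 without replicate 3 and 0.299 without replicate 4 from the same test). *MRH1*, the other relative, did not pass at a log2 change of -0.37, but was lower without WT replicate 3 (edgeR adjusted p = 0.00052) or WT replicate 4 (edgeR adjusted p = 0.0141). *PMA1*, the proton pump that Hsp30 restrains, had 13051 and 17836 CPM in WT and 6907 and 7008 CPM in *tho2Δ*. Its log2 change of -1.15 (SE 0.45, adjusted p = 0.0953) did not pass edgeR's quasi-likelihood test, but did so under 8 of the 14 alternative settings, among them DESeq2 (adjusted p = 3.01e-07) and either WT library left out (edgeR adjusted p = 2.03e-06 without replicate 3 and 4e-05 without replicate 4). For *HSP12*, the comparison was with other hydrophilin genes, whose small, water-loving proteins accumulate on drying or osmotic stress. *SIP18*, *ROQ1*, *GRE1* and *STF2* rose by 3.22, 2.32, 2.28 and 0.75 on the log2 scale, whereas *NOP6*, which has a role in ribosome assembly, was lower by a log2 change of -1.30, which makes 4 of 5 higher. Without *tho2Δ* replicate 3 the count was 2. The call of *NOP6* was lost under 6 of the 14 alternatives, either *tho2Δ* library left out among them (edgeR adjusted p = 0.069 and 0.103), and those of *STF2* and *ROQ1* under 2 and 1 of them.

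Factors that handle aggregates together with the small heat shock proteins were compared with prion proteins, whose aggregates Hsp104 breaks up. Of these 5 genes 2 were higher and 1 was lower. *BTN2*, which sorts misfolded proteins as *CUR1* does, was 2.46-fold higher (edgeR adjusted p = 0.00192), while the prion protein genes *RNQ1* and *URE2* did not pass, at log2 changes of -0.09 and -0.01. *SUP35*, the gene of a translation termination factor that forms a prion, was lower, with 127 and 134 CPM in WT and 80.7 and 76.1 CPM in *tho2Δ*. Its log2 change was -0.73 (SE 0.10, edgeR adjusted p = 0.0048), and the call was lost under 6 of the 14 alternatives, either *tho2Δ* library left out among them (edgeR adjusted p = 0.0768 and 0.0892). Among 6 other genes named for heat shock, *HSP82*, the stress-induced Hsp90 gene, rose by 1.79 and *HSP150*, a cell wall protein gene, by 0.67, in addition to *HSP78*. *HSP10* and *HSP60*, the mitochondrial chaperonin genes, and *HSC82* did not pass, with log2 changes of 0.96, 0.32 and -0.01, while all 6 were higher without WT replicate 4 and 2 without either *tho2Δ* library. The call of *HSP150* was lost under 3 of the 14 alternatives, either *tho2Δ* library left out among them (edgeR adjusted p = 0.11 and 0.257).

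The transcripts of the regulators themselves were measured too. Of 10 regulator genes, 6 were higher and 4 did not pass, with a median of 1.49-fold. The count of 6 fell to 1 without *tho2Δ* replicate 3 and to 0 without *tho2Δ* replicate 4. Calls over the whole table also fell in both settings. *GIS1*, a transcription factor of stationary phase genes, *YAK1*, a growth-restraining kinase, *BCY1*, the inhibitory subunit of protein kinase A, and *YAP1*, the oxidative stress factor, rose by 1.14, 1.07, 0.74 and 0.54 on the log2 scale. *HSF1* had a log2 change of 0.64 (SE 0.15, edgeR adjusted p = 0.0221), *MSN4* of 0.48 (adjusted p = 0.0442) and *MSN2* of 0.61 (adjusted p = 0.0792, which did not pass). These 3 factor genes were named after their values were seen, because the targets above are theirs. The calls of *HSF1* and *MSN4* were lost under 3 and 5 of the 14 alternatives, and *MSN2* passed under 5. Leaving out *tho2Δ* replicate 3 or 4 gave *HSF1* an edgeR adjusted p of 0.156 or 0.155, and *MSN4* one of 0.246 or 0.217.

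**Figure D5:**
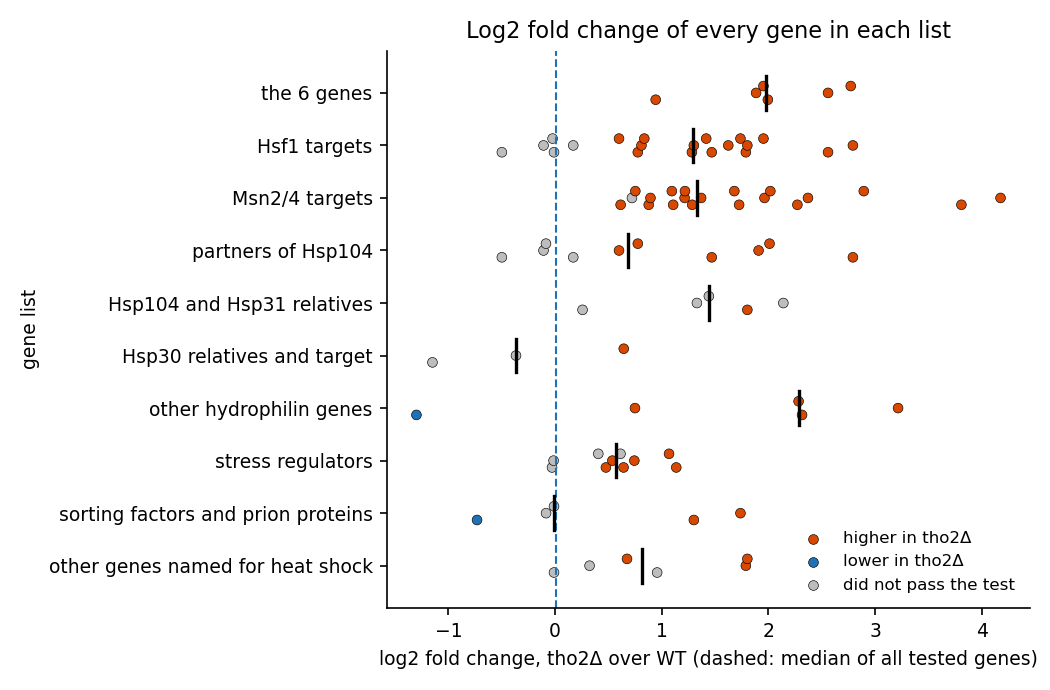
Log2 change (*tho2Δ* over WT) of every gene in each list, with 1 point per gene, colored by whether it was higher, lower or did not pass edgeR's test at an adjusted p under 0.05; black bars are list medians and the dashed line is the median of all tested genes. The median of the 6 genes is 1.97, beside 1.29 for Hsf1 targets and 1.33 for Msn2/4 targets, and the 4 partners of Hsp104 that did not pass lie between -0.50 and 0.17.

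The genes beside the 6 on their chromosomes did not rise with them as a rule. *SUP35*, which begins 575 bases after the end of *HSP42* on the same strand, was lower, as given above, and *YBR071W*, 983 bases before *HSP26*, was higher with a log2 change of 0.71 (SE 0.18, edgeR adjusted p = 0.0279), though not without *tho2Δ* replicate 3 (adjusted p = 0.178) or *tho2Δ* replicate 4 (adjusted p = 0.111). *IES1* and *ISA1*, the neighbors of *HSP12* and *HSP104*, did not pass, at log2 changes of -0.01 and -0.14, nor did *HTL1* and *YCR022C* beside *HSP30* (-0.20 and 0.84), *KRE28* and *FIT1* beside *HSP31* (0.43 and 0.68) or *YDR170W-A* on the other side of *HSP42* (-0.49). *YFL015C* and *YBR072C-A*, on the other sides of *HSP12* and *HSP26*, had at most 6 counts in any library and were not tested, and the tRNA gene after *HSP104* was not analysed here.

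To find transcripts with a similar pattern, each of the 6 was compared with 5584 other genes by the root-mean-square difference of their centered log2 values over the 4 libraries. The nearest to *HSP12* were *YBR285W*, *YJR096W* (an aldo-keto reductase) and *OYE3* (an NADPH dehydrogenase), at differences of 0.0467, 0.0579 and 0.0821 on the log2 scale. Both *HSP26* and *HSP104* had *EGO4* and *TMA10* among their 3 nearest, beside the kinase gene *PRR2* and the spindle pole body gene *SPC110*, respectively. *HSP30* was nearest to *SIP18*, one of the hydrophilin genes above, at 0.0291, then to *MOH1* and to *CAT8*, a factor for growth on nonfermentable carbon. *HSP42* was nearest to *MBR1* (0.0287), *PHM7* and *POT1*, a peroxisomal thiolase gene. *HSP31* was nearest to the transporter genes *MMP1* (0.0154) and *SUL2* and to *ACS1*, an acetyl-CoA synthetase gene. The values had 0.5 CPM added before the logarithm, which compresses genes of few counts. *POT1*, with at most 3.92 CPM in any library, thus ranked beside *HSP42* at a log2 change of 4.17. *SIP18*, with between 0.854 and 9.85 CPM, likewise ranked beside *HSP30* at a log2 change of 3.22, against 2.77 for *HSP30*.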

How the data were processed

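RNA-seq libraries of WT and *tho2Δ* yeast, 2 per strain, were analysed from 1 deposited table. The authors' read counts per gene are whole numbers and not normalized, the authors' TPM values are relative to gene length and library, and the authors' FPKM columns (4) were not used. Per the submitters' processing notes, the tools included HISAT2 2.1.0, StringTie 1.3.4d, Trimmomatic and bcl2fastq 2.20.0, with build R64. Neither the annotation release nor the strand setting is stated in those notes, the labels or the paper. The paper's methods name hot phenol extraction, the labels a column kit. Of the table, 3 lines are empty and not reported here.

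Genotype alone was fitted to the counts by the quasi-likelihood method of edgeR 4.0.16 (R 4.3.3), with TMM factors, filterByExpr and Benjamini-Hochberg adjustment over the 5890 genes kept. The SE is the absolute log2 fold change over the square root of F, and the 95% intervals use it with the t distribution of the fit. Scripts were tested on simulated data. The 14 alternatives were median-of-ratios factors, library totals with and without *SCR1* and *LSR1*, DESeq2 1.42.0, edgeR's exact test, limma 3.58.1 on log2(TPM + 1) and log2(TPM + 0.1) (mean TPM at least 1), a filter at a mean count of 50, none at all, a replicate block, and each library left out. Leaving out WT replicate 4 and *tho2Δ* replicate 4 together was added after the data were seen.

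The 6 genes and the 9 lists, written by hand, were chosen with earlier results of these data known. Genes were named by rule: the 6, *THO2*, up to 4 per list by smallest p (all of a list of at most 5), the 3 nearest profiles (CPM + 0.5, mean count of at least 50) and both neighbors. Genes outside the rule belong to a count of 5 or fewer, mark the strains, or were named after their values were seen. Motifs were searched from 250 bases before to 50 after the start codon, and in 500 bases before it. The longer window is described first, a choice made after the matches were seen, because the heat shock elements of *HSP104* lie beyond the shorter one. Copies were sought with BLAST 2.17.0 (E-value at most 1e-05). Of the table, 5995 genes matched the R64 annotation by locus tag. Protein sequences were not compared. Plots used Python 3.11.15 and matplotlib 3.10.9.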

Additional observations from a re-analysis of the deposited data

How the results depend on the processing

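The 6 genes were higher under every one of the 14 alternatives and passed the test in all of them, except *HSP31* without *tho2Δ* replicate 3. The log2 fold changes with 1 library left out ranged from 1.58 to 2.22 for *HSP12*, 1.84 to 2.13 for *HSP26*, 2.62 to 2.90 for *HSP30*, 0.82 to 1.06 for *HSP31*, 2.50 to 2.59 for *HSP42* and 1.84 to 2.04 for *HSP104*. There the single library left is taken to vary as the other strain does. Fewer genes of the whole table passed with either *tho2Δ* library left out, so a fall of calls in a list there is not particular to that list. The median of all tested genes moved from 0.01 to 0.45 with library totals, 0.53 with totals without *SCR1* and *LSR1*, and 0.39 and 0.42 with limma on log2(TPM + 1) and log2(TPM + 0.1), and the 6 genes moved by a similar amount, to medians of 2.44, 2.52, 2.38 and 2.38. The higher and lower genes, 1110 and 1127 with TMM, numbered 1207 and 303 with library totals, 1737 and 310 without *SCR1* and *LSR1*, 1179 and 348 with log2(TPM + 1), and 1074 and 335 with log2(TPM + 0.1). The higher genes were thus 49.6% of calls with TMM and 79.9%, 84.9%, 77.2% and 76.2% there. With 1 library left out they ranged from 307 to 1790 higher and 200 to 1847 lower. The higher Msn2/4 targets ranged from 11 to 20, and the lower Hsf1 targets from 0 to 5.

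Some genes that did not pass the test turned with the WT library left out, and the cause was not tested. Without WT replicate 3 and without WT replicate 4, the log2 fold changes were -0.30 and 0.31 for *HSC82*, -0.41 and 0.44 for *HCH1*, -0.40 and 0.27 for *SSE1*, and -0.31 and 0.84 for *SSA1*, each of which passed the test there. *HSC82* was at 0.56 with totals without *SCR1* and *LSR1*. For STRE and heat shock element matches over the 6 promoters, the shorter window gave 8 and 4, and the 500 bases gave 15 and 8, as it is longer. Duplicates with the same number did not vary together over genes (correlation of their deviations -0.02 over 5594 genes). This cannot show whether the libraries were prepared in pairs, and the *LEU2* counts were lower in replicate 3 than in replicate 4 of each strain. With the replicate block, 1089 genes were higher and 1040 lower, and the 6 genes had log2 fold changes between 0.94 (*HSP31*) and 2.78 (*HSP30*), with no call changed among them, while *YRO2* was lost (adjusted p = 0.0918 from edgeR). Each of the 6 genes had at least 1181 counts in every library, and there were 2 libraries per strain.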

Other observations

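*SAG1*, a gene of *MATα* cells, had 329 and 119 counts in WT replicates 3 and 4 and 1666 and 1552 in the *tho2Δ* libraries, while *STE3*, another gene of *MATα* cells, had 149 and 120 in WT and 106 and 105 in *tho2Δ*. *HIS3*, of which the allele *his3Δ1* keeps a part, had between 586 and 981 counts in the 4 libraries.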
